A study of Danio rerio with 2 samples.

Results

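Barcodes rich in lyz and cell cycle transcripts but with few transcripts of mitosis were taken as cycling neutrophil progenitors. They numbered 1146 of 28534 barcodes, 882 in a library of sorted neutrophils and 264 in a library of whole kidney marrow (WKM). A barcode stands for 1 droplet and usually 1 cell. These barcodes were selected on their own transcript counts: at least 500 detected features, under 10% of unique molecular identifiers (UMIs) from mitochondrial genes, at least 3% of UMIs from lyz, a summed count of at least 3 UMIs for mki67, top2a, cdk1 and rrm2, and a summed count under 4 for cdc20, ccnb1, aspm, cenpf and kif11. They are called members below. The levels of those 10 genes, and every difference that follows from choosing cells by them, are given as a description and without a test.

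The marrow donors were 2 male zebrafish, adults aged 6 months, with the lysC:CFP-NTR transgene, which marks neutrophils, and with a Citrine-CAAX membrane reporter under the regulatory elements of mmp9 on a bacterial artificial chromosome. Each marrow was divided into portions that were tagged with lipid-anchored barcodes and sorted separately. The sorted library joined LysC+ cells without, with intermediate and with high Mmp9 reporter signal, and the WKM library held live cells of the same marrows with no reporter gate. No treatment separated the libraries, and droplets were not assigned to a fish or a sort gate here, so each library is 1 sample with no replicate, and intervals below cover counting error only.

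Neutrophils arise in the adult zebrafish in the kidney marrow, the counterpart of mammalian bone marrow, from precursors that divide while they fill their first granules and stop dividing as they mature. In S phase a cell fires replication origins, makes deoxynucleotides and histones, and wraps the new DNA into chromatin. Genes for origin licensing are transcribed early in this sequence, and those for spindle, kinetochore and chromosome condensation late, before division.

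The members made up 10.35% (exact 95% interval 9.712 to 11.02%) of the 8521 lyz-rich barcodes of the sorted library and 9.847% (8.745 to 11.04%) of the 2681 in the WKM library. The sorted library pooled cells of separate gates, so its share is not a frequency in the marrow. They are compared with the other lyz-rich barcodes (7639 sorted, 2417 WKM). Of those, 451 and 163 passed the cycling limit but had at least 4 mitotic UMIs and are called mitotic, and 7188 and 2254 were under the cycling limit and are called not cycling. That name means only under the limit, at median depths of 3339 and 3857 UMIs. Among barcodes with under 4 mitotic UMIs, 1072 sorted and 194 WKM ones had 1 cycling UMI, and 363 and 28 had 2. Among all cycling lyz-rich barcodes, members were 66.17% in the sorted and 61.83% in the WKM library. Members held a median of 7406.5 UMIs in the sorted and 7124 in the WKM library, against 3536 and 4033 in the other lyz-rich barcodes and 9052 and 8882 in the mitotic ones. The cycling limit is a count of UMIs, so depth and selection cannot be told apart. Thinned to 2000 UMIs each, members had a median of 763 features against 754 in the others in the sorted library, and 702.5 against 678.5 in the WKM library, with 58, 1607, 10 and 157 barcodes too shallow to thin.

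Of 62 barcode sequences found in both libraries, 4 belonged to members and none was a member in both. Scrublet marked 14.74% of members as doublets in the sorted library, against 11.88% of not cycling barcodes, and 5.303% against 1.198% in the WKM library. Of the mitotic barcodes it marked 8.426% in the sorted library and 0 of 163 in WKM. The marked barcodes were kept, as the rule has no doublet step. Without them 752 and 250 members were left, and the counts of genes at least 2-fold higher stayed within 1.5 times those given below.

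rrm2, the small subunit of ribonucleotide reductase, carried most of the selection. Its median was 6 UMIs per member in either library, and it was seen in 95.35% of sorted and 97.73% of WKM members. In 15.31% and 17.80% of members all cycling UMIs came from rrm2, with no UMI of mki67, top2a or cdk1. Summed over its 2 gene identifiers and given as counts per 1000000 UMIs (CPM), rrm2 stood at 958 CPM in sorted members and 943 in WKM members, 49.7 and 38.5 in the others, and 205 and 196 in the mitotic barcodes. cdk1, the kinase of mitotic entry, mki67, a proliferation antigen, and top2a, a topoisomerase that untangles replicated DNA, ran the other way: cdk1 was at 220 and 224 CPM in members but 665 and 629 in mitotic barcodes. The selected group was thus rich in rrm2 relative to the other 3 cycling genes.

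Just inside the mitotic limit, at 3 UMIs, lay 66 sorted and 22 WKM members, and just outside it, at 4 UMIs, 51 and 15 barcodes. Most members lay far from it, with 521 and 146 at 0 mitotic UMIs. At the cycling limit, 127 and 19 members had exactly 3 UMIs, and 363 and 28 barcodes with 2 UMIs were left out. Across the lyz limit there were few on either side: 15 and 4 members between 3.0 and 3.5% and 12 and 5 otherwise qualifying barcodes between 2.5 and 3.0%.

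All 8 measured genes of a neutrophil marker list of 10 names were detected in members of both libraries. Without lyz, which the rule used, the other 7 summed to 73720 CPM in sorted members against 82620 in the others, and to 66770 against 78070 in WKM, where cycling barcodes with little lyz had 2012. The members thus carried neutrophil transcripts beyond the gene that chose them, at a somewhat lower level than the other lyz-rich barcodes. Markers of stem and progenitor cells (meis1b, gata2a, gata2b, myb, lmo2, tal1, fli1a and csf1rb) summed to 231 CPM in sorted members and 259 in the others, and to 216 and 255 in WKM, so the word progenitor rests on the cycle genes and not on these. Of 10 monocyte and macrophage markers, 6 including mpeg1.1, marco and csf1ra were at 0 in sorted members and 3 (csf1ra, marco and mpeg1.1) in WKM members. Thrombocyte and kidney or endothelial lists gave 1 count each in sorted members and 15 and 7 counts in WKM members. Erythroid markers were the exception. They summed to 27.1 CPM in sorted members but 40760 in WKM members and 27190 in the other WKM barcodes, and every WKM member had at least 3 such UMIs, as did every quality-passing barcode of that library. With hemoglobin left out of the CPM, 534 genes were higher and 375 lower in WKM members than in the others, against 523 and 397 with it. The monocyte list summed to 305 CPM in WKM members and 174 in the others, and its part in their differences was not tested.

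Defining markers of lymphocytes were at or near 0, apart from ighv1-4, whose current symbol is ighm. Of the 5 measured B cell markers cd79a, cd79b, cd37 and pax5 were at 0 in both libraries' members, and ighv1-4 alone gave 29.1 CPM in sorted members and 103 in WKM members, against 33.9 and 40.1 in the others. In WKM members it gave 213 counts, and 3 of the 264 had at least 3 UMIs of this list. How these counts were spread over barcodes was not examined. Of the 7 measured T and NK cell markers, cd4-1, cd8a, il7r, zap70 and nkl.4 were at 0 in the members of both libraries, and nearly all of the list's sum came from dusp2, a phosphatase gene not limited to lymphocytes, at 706 CPM in sorted members against 738 in the others, and 375 against 324 in WKM. The eosinophil and mast cell list came to 3946 and 3857 CPM in members and 4462 and 4997 in the others, nearly all of it from cpa5, which the neutrophil barcodes also carried.

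Against the other lyz-rich barcodes, the members were higher in genes of replication, while granule genes differed by less than 2-fold with 1 exception. Among 9528 genes with at least 50 counts in both groups together, 651 (6.83%) were at least 2-fold higher in sorted members and 339 (3.56%) at least 2-fold lower. In the WKM library 523 of 7539 (6.94%) were higher and 397 (5.27%) lower. In both libraries at once, 394 of 7470 genes (5.27%) were higher and 107 (1.43%) lower. The median log2 ratio over all genes was -0.05 in either library. Of 620 genes that passed 2-fold in the sorted library and had enough counts in both, 608 had the same direction in the WKM library and 0 passed 2-fold in the opposite direction. Intervals clear of 0 in opposite directions were seen for 38 of the 7470 genes. With the others limited to barcodes at or above the lower quartile of the members' depth, 527 genes were higher in the sorted and 375 in the WKM library, but only 161 and 144 were lower, a drop of more than 1.5 times.

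The 12 genes that stood farthest above the others in both libraries were of several kinds. esco2, the acetyltransferase that locks cohesin onto replicated sister chromatids, was at 85.6 CPM in sorted members and 4.10 in the others, and at 81.5 and 4.01 in WKM. Its log2 ratio was 4.38 (95% interval 4.11 to 4.66) and 4.35 (3.87 to 4.84), the highest by the rule that ranks genes by the smaller of their 2 ratios. fanci, of the Fanconi crosslink repair complex, followed at 19.4 against 1.16 CPM and 21.8 against 0.682. pclaf, a small partner of the PCNA clamp, was at 187 against 12.8 CPM and 161 against 10.4. The dUTPase gene dut, which keeps uracil out of new DNA, was at 374 against 25.2 CPM and 326 against 23.2, a log2 ratio of 3.89 (3.78 to 4.01) and 3.81 (3.61 to 4.02). trip13, exo1, tk1, chek1, cenpo and wdr76 completed the named genes of the top 12 with krcp and the unnamed zgc:110540, and none of the 12 was under 10.6-fold in the sorted library.

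**Figure D1:**
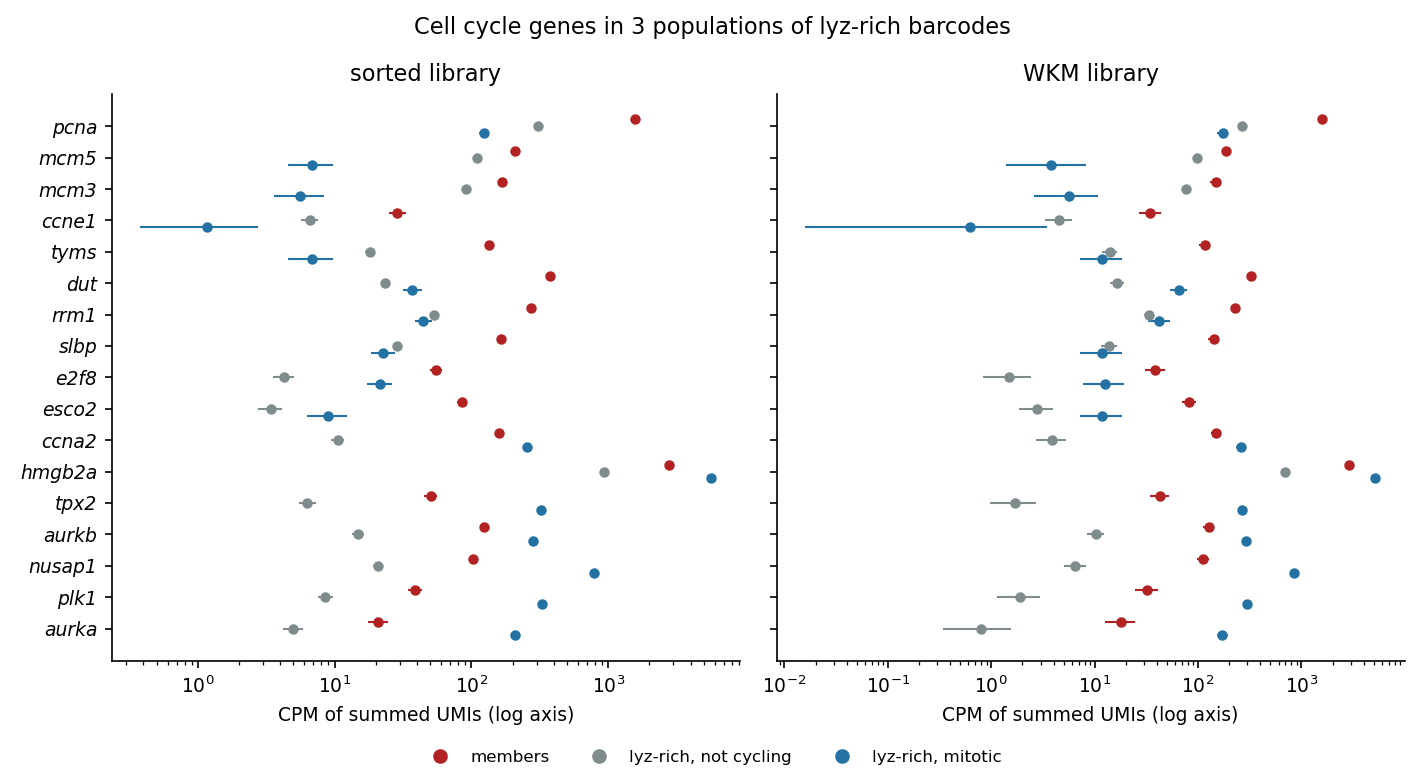
Levels of 17 cell cycle genes in members, not cycling and mitotic lyz-rich barcodes, sorted library on the left and WKM on the right; the horizontal axis is CPM of summed UMIs on a log scale, and bars are exact 95% Poisson intervals. Genes from pcna to esco2 are highest in members, while those from ccna2 to aurka are highest in mitotic barcodes, as with nusap1 at 103 CPM in sorted members and 790 in sorted mitotic barcodes.

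Genes of origin licensing and the replication fork were higher almost throughout. Of 46 tested in the sorted library, 41 were at least 2-fold higher and 0 lower, with a median log2 ratio of 1.96, and 37 of 42 in WKM, with a median of 2.01. Against the other lyz-rich barcodes 6.83% and 6.94% of all genes were higher and 3.56% and 5.27% lower, also beside the lists below. pcna, the sliding clamp of the polymerases, was the most abundant at 1577 CPM (1547 to 1607) in sorted members against 283 (278 to 289) in the others, and 1563 (1510 to 1618) against 252 (243 to 262) in WKM. The primase-polymerase subunit pola2, the ligase lig1, the flap nuclease fen1 and the single-strand binding subunit rpa2 had log2 ratios of 2.72, 2.14, 1.94 and 2.29 in the sorted library and 2.59, 2.03, 1.87 and 2.37 in WKM. The helicase subunits stood out for a smaller difference: mcm5 was at 209 against 97.4 CPM and 187 against 84.5, about 2.14-fold and 2.21-fold. Not cycling barcodes kept mcm5 at 111 and 97.3 CPM, well above the 6.80 and 3.75 CPM of mitotic barcodes.

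Deoxynucleotide supply showed the same pattern beyond rrm2. In the sorted library 14 of 26 tested genes were at least 2-fold higher and 0 lower (median log2 1.2), and 14 of 24 in WKM (1.25). rrm1, the large subunit of ribonucleotide reductase, was at 274 against 52.2 CPM and 228 against 34.9. Thymidylate synthase tyms was at 134 against 16.8 and 115 against 13.6 CPM, and its partner in the folate cycle, dhfr, at 158 against 34.0 and 169 against 39.1. The salvage kinases tk1 and dck had log2 ratios of 3.56 and 2.49 in sorted and 3.44 and 2.86 in WKM members. nme2b.1, the most abundant gene of the list and a general nucleoside diphosphate kinase, differed little, at -0.10 and -0.18.

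Chromatin assembly genes were higher as well. Of 33 tested genes 19 were at least 2-fold higher in sorted members (median log2 1.12) and 22 of 33 in WKM (1.28), with 0 lower in either. The large subunit of the chromatin assembly factor, chaf1a, was at 239 against 44.5 CPM and 247 against 40.7, and the histone chaperone asf1ba at 132 against 14.2 and 114 against 8.78. slbp, which binds the stem loop of replication-dependent histone messages, was at 165 against 28.0 CPM and 141 against 13.6. The histones were added to the lists after their values had been seen: 44 features named hist1h or hist2h summed to 2826 CPM in sorted members and 676 in the others, and to 3809 and 820 in WKM, a log2 ratio of 2.06 (2.04 to 2.09) and 2.22 (2.17 to 2.26). The kit captures polyadenylated RNA, and histone genes have near-identical copies whose reads the counting could split. hmgn2, an abundant nucleosome binding protein, was only slightly higher, at 9296 against 7157 and 9665 against 6254 CPM.

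Checkpoint, repair and cohesion genes had the highest list median in the sorted library, 2.12 with 19 of 23 at least 2-fold higher, and 1.71 with 14 of 17 in WKM. The cohesin subunits rad21a and smc3 differed less, at 0.47 and 0.77 in sorted and 0.64 and 1.34 in WKM members.

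Among cyclins, kinases and E2F factors, 15 of 25 tested genes were at least 2-fold higher and 1 lower in sorted members, and 11 of 22 higher and 1 lower in WKM. The S phase cyclin ccne1 was at 28.7 against 5.91 CPM and 34.4 against 4.01, and ccna2, used in S phase and beyond, at 160 against 41.3 and 148 against 38.7. The repressor e2f8, itself switched on in S phase, was at 55.2 against 6.42 and 38.3 against 2.99 CPM. Cyclin D2 (ccnd2a), which acts before S phase, was lower in members at 69.7 against 131 and 73.2 against 130 CPM, a log2 ratio of -0.91 (-1.05 to -0.77) and -0.83 (-1.08 to -0.59). The 1 gene past 2-fold downwards was cdk7, at -1.35 and -1.20. Among all genes 6.83% and 6.94% were higher and 3.56% and 5.27% lower, so 1 lower gene is near that share.

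A list of cell cycle exit genes split. Members were higher in mxd3, a Max partner that opposes Myc, at 91.9 against 14.6 and 124 against 14.8 CPM, and in the inhibitor cdkn2c, at 20.4 against 4.04 and 16.0 against 3.58. They were lower in tob1b, an antiproliferative adaptor, at 45.1 against 132 CPM in sorted and 12.1 against 60.6 in WKM. rbl2, a retinoblastoma family member, was near absent from members at 0.592 and 0.485 CPM, against 3.89 and 4.35 in the others. In all 3 of 23 tested genes were at least 2-fold higher and 4 lower in sorted members, and 3 and 4 of 21 in WKM. Over all genes 6.83% and 6.94% were higher and 3.56% and 5.27% lower. Of this list, the higher genes shared by both libraries were mxd3 and cdkn2c, and the lower ones tob1b, mxi1 and rbl2.

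**Figure D2:**
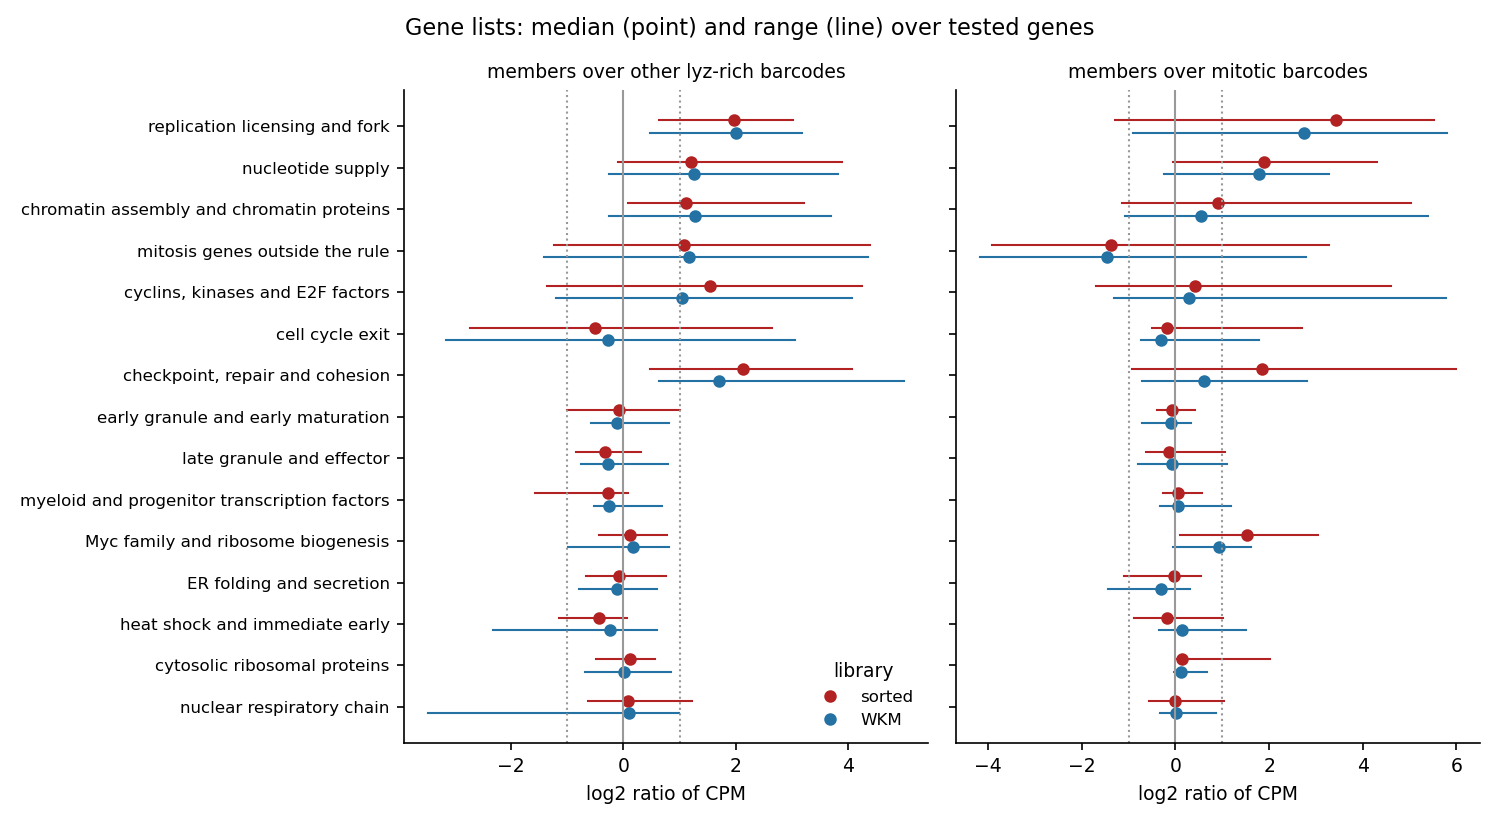
Median (points) and range (lines) of the log2 ratio over the tested genes of 15 lists, for members over other lyz-rich barcodes (left) and over mitotic barcodes (right), sorted library in red and WKM in blue; dotted lines mark 2-fold. Lists of replication and repair lie to the right in the left panel, with medians of 1.96 and 2.12 in the sorted library, granule and ribosomal protein lists near 0, and mitosis genes change side between panels.

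Most mitosis genes outside the rule lay between not cycling and mitotic barcodes. Against the other lyz-rich barcodes, which include the mitotic ones, 30 of 59 were at least 2-fold higher in sorted members (median log2 1.08) and 33 of 58 in WKM (1.17), with 1 lower in each, ccnb3. With others of matched depth the WKM median was 0.47. Against not cycling barcodes alone, 56 of 59 were higher in the sorted library with a median of 3.18, and 44 of 46 in WKM with a median of 4.30, where 7.36% and 7.58% of all tested genes were higher and 3.74% and 5.72% lower. Against mitotic barcodes 36 of 59 were lower in the sorted library (median -1.38) and 36 of 58 in WKM (-1.46), but 5 and 3 were higher. These were esco2, cenph, a kinetochore gene, and sass6, a centriole gene, in both libraries, and the condensin genes ncapg2 and ncapd3 in the sorted one. In that comparison 9.12% and 6.69% of all genes were higher and 3.45% and 4.54% lower. The number of higher mitosis genes was thus not above the share of all genes. nusap1, a spindle protein, was at 103 and 112 CPM in members, 790 and 847 in mitotic barcodes, and 20.8 and 6.52 in not cycling ones. The condensin genes smc2 and smc4 stood at 0.01 and 0.19 and at 0.33 and 0.66 on the log2 scale against mitotic barcodes.

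Over mitotic barcodes, 660 of 7236 genes (9.12%) were at least 2-fold higher in sorted members and 250 (3.45%) lower, and 287 of 4293 (6.69%) were higher and 195 (4.54%) lower in WKM. The 8 highest ratios were those of hells, a chromatin remodeller, the helicase subunits mcm5, mcm3, mcm2 and mcm4, cdc6, which loads the helicase, ccne1 and unga, a uracil glycosylase. hells was at 83.9 against 2.58 CPM and 79.1 against 1.88, a log2 ratio of 5.02 (4.17 to 6.03) and 5.40 (3.82 to 7.69). Of the replication list, 45 of 46 genes were at least 2-fold higher in sorted members and 35 of 36 in WKM. dbf4, the activator of the origin-firing kinase, was the 1 lower gene in the sorted library, at 13.2 against 32.1 CPM.

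At the other end stood kmt5ab, a histone methyltransferase, si:ch211-69g19.2, whose current symbol is cdca3, parpbp, a clone now named troap, tuba1b, a tubulin, and oip5, a kinetochore factor. tuba1b was at 8.73 CPM in sorted members and 181 in mitotic barcodes, and at 7.76 and 160 in WKM. The first 3 of these genes also headed the list of genes lower in members than in the other lyz-rich barcodes, with log2 ratios of -3.35, -2.94 and -3.49 in the sorted library and -3.62, -3.57 and -2.85 in WKM. Against not cycling barcodes the cdca3 clone was at 0.12 and 1.80, so its lower level held against the mitotic barcodes and not against these. rbl2 and ezh1, a histone methyltransferase of the Polycomb group, stayed lower against not cycling barcodes in both libraries, with rbl2 at -2.89 and -3.35. Both rest on few counts in members, 4 for rbl2 and 12 for ezh1 in the sorted library.

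Of the genes of the Myc family and of ribosome biogenesis, 0 of 33 and 0 of 32 differed 2-fold from the other lyz-rich barcodes, with medians of 0.12 and 0.17. Over all genes 6.83% and 6.94% were higher and 3.56% and 5.27% lower there. Against mitotic barcodes 23 of 30 were at least 2-fold higher in the sorted library (median 1.53) and 8 of 23 in WKM (0.94). In that comparison 9.12% and 6.69% of all genes were higher. myca was at 49.4 and 31.0 CPM in members, 32.6 and 21.0 in the others, and 12.2 and 18.1 in mitotic barcodes. npm1a, the nucleolar chaperone, was at 196 and 165 CPM in members, and at log2 2.38 and 0.94 over mitotic barcodes.

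Within the members, the number of mitotic UMIs ordered the cycle genes. From 0 through 1, 2 and 3 mitotic UMIs, mcm2 to mcm7 summed fell from 1174 to 482, 144 and 138 CPM in the sorted library and from 1055 to 385, 81.6 and 66.0 in WKM. pcna fell more slowly, from 1899 to 1356, 954 and 765 CPM and from 1827 to 1488, 1252 and 480. Histones rose over the same steps, from 1773 to 3687, 4759 and 5256 CPM in the sorted library and from 2133 to 5100, 6463 and 7331 in WKM, and stood lower, at 3083 and 3470, in barcodes with at least 6 mitotic UMIs. The median depth of the 4 groups of members lay between 7054 and 7893 UMIs in the 2 libraries.

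**Figure D3:**
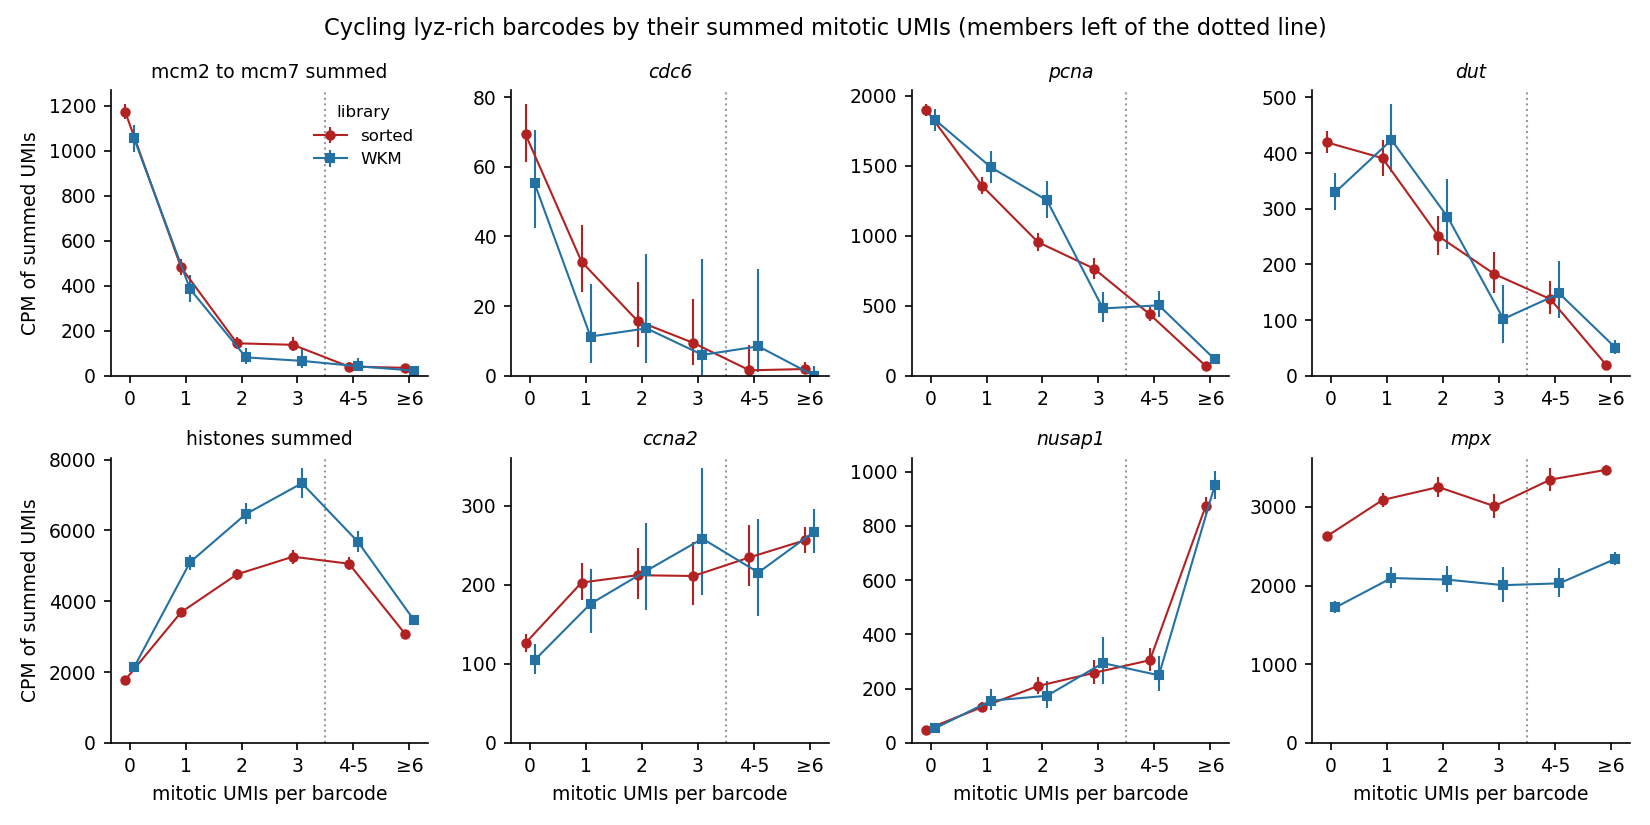
CPM of summed UMIs in cycling lyz-rich barcodes grouped by their summed mitotic UMIs, with exact 95% Poisson intervals; groups run from 0 to 3, then 4 to 5 and at least 6, and those left of the dotted line are members (521, 193, 102 and 66 sorted, 146, 61, 35 and 22 WKM). mcm genes and cdc6 are highest at 0 mitotic UMIs, histones peak at 3, and mpx shows no such swing, lying between 2624 and 3472 CPM in the sorted library.

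ccna2 rose from 126 CPM at 0 to 211 at 3 mitotic UMIs in the sorted library and from 105 to 258 in WKM. nusap1 rose from 49.0 to 258 and from 53.6 to 294 CPM, and reached 875 and 951 in barcodes with at least 6. dut was at 419, 391, 251 and 183 CPM over these steps in the sorted library and at 330, 424, 286 and 102 in WKM, where its highest value lay at 1 mitotic UMI. rrm2, which the rule used, fell from 1007 to 958, 861 and 742 CPM in the sorted library. In WKM it went from 919 to 994, 1068 and 757 CPM, with no steady order. A marker of dividing cells outside the lists, stmn1a, a tubulin-destabilising protein named after its values were seen, was at 358 and 525 CPM in members, 19.0 and 27.4 in not cycling barcodes and 109 and 131 at 6 or more mitotic UMIs. Thinned to 2000 UMIs it was seen in 41.02% of sorted and 56.69% of WKM members against 4.360% and 4.646% of the others (unthinned 69.61%, 86.74%, 8.797% and 9.971%).

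Over all genes, members with 0 mitotic UMIs were compared with those with 2 or 3, a comparison added after seeing the values. Of 5541 genes, 348 (6.28%) were at least 2-fold higher at 0 and 155 (2.8%) lower in the sorted library, and of 2486 in WKM 134 (5.39%) were higher and 89 (3.58%) lower. hells, mcm3, mcm5, mcm2, cdca7a, mcm4, mcm6 and cdc6 led the higher genes in both libraries, with mcm2 at 221 against 23.6 CPM and 200 against 2.17. The WKM ratio of mcm2 rests on very few counts at 2 or 3 mitotic UMIs, with a log2 of 6.52 (4.03 to 11.83). The ribosome biogenesis list was higher as well, in 21 of 28 tested genes (median log2 1.37) and 13 of 18 in WKM (1.46), with 0 lower. dkc1, the pseudouridine synthase of small nucleolar particles, was at 133 against 25.8 CPM in the sorted library. Of the mitosis list 31 of 56 genes were lower at 0 in the sorted library and 18 of 30 in WKM, with 0 higher. kifc1, a kinesin, nusap1 and the linker histone histh1l had the lowest ratios, with kifc1 at 14.5 against 70.8 and 14.7 against 71.7 CPM.

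Late granule and effector genes were slightly lower in members. None of the 30 tested in the sorted library and none of the 29 in WKM differed 2-fold from the other lyz-rich barcodes, where 6.83% and 6.94% of all genes were higher and 3.56% and 5.27% lower. Their medians were -0.32 and -0.28, and 25 of 30 and 19 of 29 had intervals below 0. Of all tested genes, 2332 of 9528 in the sorted library and 1303 of 7539 in WKM had such intervals. Members held more lyz than the others: medians of 9.292% against 5.823% of UMIs in the sorted library and 10.33% against 7.464% in WKM. For members with lyz at 9% or more over those under 6%, the late list had medians of -0.80 in the sorted library and 0.02 in WKM. The part of lyz in the lower levels was not tested. Against mitotic barcodes 1 of 30 (a second identifier under the symbol lyn, which RefSeq lists as tgs1) was at least 2-fold higher in sorted members and 3 of 26 (s100a10b, mmp9 and il1b) in WKM. Over all genes 9.12% and 6.69% were higher in that comparison. The WKM ratio of mmp9 rests on 55 counts in members and 21 in mitotic barcodes. Of 10 genes of early granules and early maturation, 1 was 2-fold lower in sorted members (acp5a, a lysosomal phosphatase, at 20.1 against 40.5 CPM) and 0 in WKM, with medians of -0.08 and -0.11. Myeloperoxidase (mpx) was at 2832 against 2947 CPM and 1876 against 1944, nephrosin (npsn) at 8175 against 8546 and 6650 against 7124, and lect2l, a secreted chemotactic factor, at 45830 against 52450 and 44010 against 54190. s100a10b, an annexin partner, had the highest ratio of the late list, at 3761 against 3007 and 3760 against 2175 CPM.

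Myeloid transcription factors were slightly lower in members. cebpb was at 2092 against 2746 CPM and 1852 against 2268, cebpa at 1675 against 1964 and 1497 against 1864, and spi1b, the PU.1 gene, at 1060 against 1371 and 968 against 1390. Their log2 ratios lay between -0.52 and -0.23. Within members of both libraries cebpb fell as lyz rose, and the part of lyz in these differences was not tested. Of the transcription factor list 1 of 15 genes, lmo2, was 2-fold lower in sorted members and 0 of 14 in WKM, where 3.56% and 5.27% of all genes were lower. The endoplasmic reticulum, ribosomal protein and respiratory chain lists stayed within 0.12 of 0 in their medians. Of their 29, 76 and 84 tested genes in the sorted library 0, 0 and 1 were 2-fold higher and 0 lower. Of 29, 76 and 85 in WKM 0 were higher and 0, 0 and 1 lower, the 1 at a log2 ratio of -3.47. Over all genes 6.83% and 6.94% were higher and 3.56% and 5.27% lower.

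**Figure D4:**
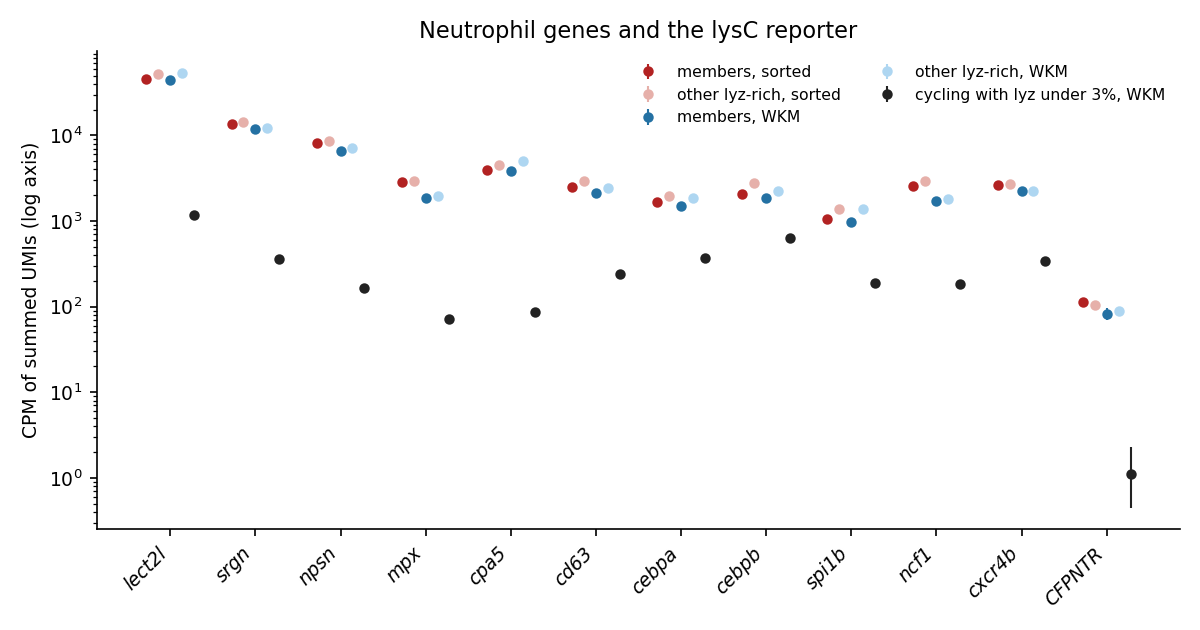
CPM on a log scale of 11 neutrophil genes and the lysC:CFP-NTR reporter (CFPNTR) in members and other lyz-rich barcodes of both libraries and in WKM barcodes that cycle outside mitosis with lyz under 3%, with exact 95% Poisson intervals. Members and other lyz-rich barcodes lie close together, as mpx at 2832 and 2947 CPM in the sorted library, and the barcodes with little lyz lie below them at 71.6 CPM of mpx.

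The reporters gave the same picture for lysC. CFPNTR was at 113 CPM (105 to 121) in sorted members against 103 (99.9 to 107) in the others, and at 82.0 (70.08 to 95.3) against 89.9 (84.5 to 95.5) in WKM. After thinning to 2000 UMIs it was seen in 18.93% of sorted members and 16.20% of the others, and in 11.02% and 15.13% in WKM, while unthinned shares were 48.98%, 29.02%, 41.29% and 30.12%. In WKM barcodes with little lyz it was seen in 0 of 669 thinned barcodes, where a limit of 3 counts allows up to 0.448% of barcodes with a UMI at this depth (exact upper limit 0.550%), and in 0.740% unthinned. Citrine was too rare to compare, with 5 counts in sorted and 2 in WKM members. mmp9 itself was at 191 CPM in sorted members and 267 in the others, and at 26.7 and 28.9 in WKM, with thinned shares of 25.49% against 29.14% and 6.693% against 5.265% (unthinned 43.20%, 42.86%, 10.98% and 7.406%). pcna, for scale, was seen in 81.19% of thinned sorted members against 31.35% of the others, and in 83.46% against 26.77% in WKM (unthinned 89.46%, 45.84%, 93.56% and 40.01%).

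Members were spread over the range of lyz. In the sorted library 199 members had lyz at 3 to 6% of UMIs, 214 at 6 to 9% and 469 at 9% or more, with median depths of 4596, 6895 and 8638 UMIs, and in WKM 31, 62 and 171. In sorted members mmp9 fell along these steps from 527 to 244 and 89.6 CPM, and cebpb from 3643 to 2671 and 1499, while cpa5, a carboxypeptidase, rose from 2479 to 3385 and 4512. In WKM members mmp9 went from 51.3 to 38.3 and 16.9 CPM, cebpb from 2544 to 2441 and 1487, and cpa5 from 1900 to 3263 and 4525. mcm2 to mcm7 summed to 699, 813 and 846 CPM in the sorted library and to 590, 690 and 718 in WKM. Depth rose together with lyz in the sorted library, while the WKM groups had median depths of 8401, 6491 and 7347 UMIs, and the part of depth in these differences was not tested.

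Over all genes, 64 of 5474 (1.17%) were at least 2-fold higher and 207 (3.78%) lower in sorted members with at least 9% lyz than in those under 6%, where the median log2 ratio was -0.18. In WKM 107 of 2447 (4.37%) were higher and 58 (2.37%) lower. Of the late granule and effector list 7 of 29 genes were lower in the sorted library, among them mmp9, il1b, an inflammatory cytokine, and cxcr1, a chemokine receptor, and 0 of 22 in WKM. The cycle lists differed between libraries along this range. In WKM 7 of 33 mitosis genes (median log2 0.68) and 3 of 31 replication genes (0.51) were higher with more lyz and histones were 1.95-fold higher, while in the sorted library 0 of 56 mitosis genes were higher and 3 lower (-0.20), 0 of 44 replication genes passed 2-fold (0.30), and histones were 1.03-fold. Named by the rule for both libraries, cfd, complement factor D, was higher with more lyz at 1822 against 782 and 1799 against 631 CPM, as were CFPNTR and c6ast1, an astacin protease. clic2, a chloride channel protein, and cdaa, a cytidine deaminase, were lower, with clic2 at 37.3 against 166 and 25.3 against 131 CPM. The 31 WKM members with the least lyz also carried the hemoglobin hbaa1 at 53470 CPM against 9003 in those with the most, and its part in their other differences was not tested.

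In the unsorted marrow most barcodes that cycled outside mitosis had little lyz: the 264 members were 28.09% of the barcodes that passed the cycling and mitotic limits, and 676 had less than 3% lyz, while in the sorted library members were 95.25%. These 676 barcodes had a median lyz of 0.0214% and a summed 365200 CPM of erythroid markers, against 40760 in WKM members. Of 6034 genes, 1524 (25.3%) were at least 2-fold higher in members and 522 (8.65%) lower, about a median log2 ratio of 0.40. The replication list held 0 of 44 genes past 2-fold in either direction, with a median of 0.31. pcna was seen in 83.46% of thinned members and 77.28% of these barcodes. Erythroid transcripts are part of the totals behind these CPM and thinned shares, and they lower all other genes more in the barcodes with little lyz. CPM without hemoglobin was not computed for this comparison. How far hemoglobin moves these ratios, and those of the next paragraph, was not tested.

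The 2 cycling groups differed in lineage genes. Of the early granule list 9 of 10 genes were higher in members, with a median log2 ratio of 4.95, and of the late list 25 of 28, with a median of 2.52. c6ast1, ryr3, a calcium channel, CFPNTR and cldn15lb led, with CFPNTR at 82.0 against 1.12 CPM, and cpa5 at 3856 against 87.6 CPM. Embryonic-type hemoglobins hbae1.1 and hbbe1.3, grn2 and several spink2 protease inhibitors lay at the other end, with hbbe1.3 at 4.85 against 275 CPM. Among transcription factors, cebp1 was at 41.7 against 1.44 CPM, while tal1 and lmo2, factors of stem and erythroid cells, were at 12.1 against 113 and 18.4 against 148. Ribosome biogenesis genes were lower in members, in 8 of 32 tested with 0 higher and a median of -0.65, as with npm1a at 165 against 405 CPM and myca at 31.0 against 107.

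Members of the 2 libraries had genes of replication and mitosis at close levels and differed in heat shock, cell cycle exit, effector and hemoglobin transcripts. Of 6775 genes, 328 (4.84%) were at least 2-fold higher in sorted than in WKM members and 60 (0.886%) lower, about a median log2 ratio of 0.20. None of the 46 replication, 33 chromatin, 58 mitosis or 23 repair genes tested passed 2-fold, and their medians lay between 0.00 and 0.19. pcna was at 1577 and 1563 CPM, and chaf1a at 239 and 247. Of the cell cycle exit list, 5 of 20 genes were at least 2-fold higher in sorted members and 0 lower (median 0.47), among them ccng2, a cyclin of arrested cells, at 243 against 78.6 CPM. Of the late granule and effector list, 5 of 29 were higher and 0 lower (median 0.43), and 24 of 29 had intervals above 0. Intervals above 0 were seen for 1562 of all 6775 genes.

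Of 16 heat shock and immediate early genes 11 were at least 2-fold higher in sorted members and 0 lower, with a median of 1.51. The inducible chaperones led: hsp70.3 was at 106 against 0.485 CPM, or 1 count, and hsp70.2 at 64.9 against 1.46 CPM, or 3 counts. hsp70l was at 78.8 CPM against 0 counts, at least 54.2-fold higher with 3 counts as the floor over the WKM members. The co-chaperone dnajb1b was at 160 against 24.3 CPM, atf3 at 457 against 110, and mmp9 and il1b at 191 against 26.7 and 787 against 185. Within the sorted library hsp70l was lower in members than in the others, at 78.8 against 174 CPM, a log2 ratio of -1.14 (-1.27 to -1.02). Hemoglobin genes had the lowest ratios, with hbaa1 at 11.98 against 17830 CPM and hbaa2 at 0.444 against 2099, and hemgn, an erythroid nuclear protein, at 0.148 against 97.0. abcc13 was at 136 against 345 CPM and lmo2 at 1.78 against 18.4. The sort gate and the library cannot be told apart in these differences, since each was made once.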

How the data were processed

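Droplet libraries were made with the 3' chemistry of 10x Genomics. The authors deposited a matrix of raw UMI counts per library, and the labels name Cell Ranger 3.1.0, Seurat 4.0.2 and genome build GRCz11 in the submitters' processing notes. The lipid tags used to demultiplex fish and gates were not used here. The doublet removal of the study was not repeated here.

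Barcodes were filtered as described above, and counts were summed over the barcodes of a population with no correction for free RNA. CPM is the summed count of a gene per 1000000 UMIs of the population. Levels carry exact Poisson 95% intervals, shares exact Clopper-Pearson ones, and log2 ratios the interval of the exact binomial split of both counts. With 1 library per condition no test was made, and called means at least 2-fold among genes with at least 50 counts in both populations together. A gene at 0 counts was set to a floor of 3. Total depth was 6760848 UMIs over sorted and 2061752 over WKM members, so 3 counts amount to 0.444 and 1.46 CPM.

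The members and the gene lists were chosen with earlier results of these data known, so no list is independent support. Named genes were the 10 of the rule, the reporters, up to 6 of each list by level in sorted members plus those at least 4-fold different in the same direction in both libraries, and the 12 or 8 largest ratios each way per comparison (10 for the 2 comparisons within members, which were added after the values were seen). Further list genes (abcc13, ccnb3, cdk7, cebp1, cxcr1, dbf4, dkc1, il1b, lmo2, lyn, mxi1, myca, tal1, tob1b), the histones and stmn1a were named after their values were seen. List names were matched by symbol or RefSeq synonym, and 17 entries of lists or marker lists were not matched. Scripts used Python 3.11.15, numpy 2.4.6, scipy 1.17.1, pandas 2.3.3, matplotlib 3.10.9, and Scrublet as in scanpy 1.11.5 with an expected doublet rate of 10%, for an alternative only. The interval code was tested on simulated data. Alternatives changed the rule's limits, the scaling, the compared barcodes, the count minimum, the fold and the thinning. Promoter motifs were not analysed here. The result of 1 gene is not reported here.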

Additional observations from a re-analysis of the deposited data

How the results depend on the processing

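No paired analysis was possible because each condition is 1 library. For the same reason no replicate could be left out, and counting error is the only error measured. A difference between libraries may thus be one of gate, handling or the share of cells from each fish. Genes under 50 counts and the reporter Citrine could not be compared at this depth. Promoter motifs, and another window for them, were not run. Of 126 alternative values for counts, 97 stayed within 1.5 times the reported one. In the band set for them stayed 204 of 210 list medians and 1121 of 1680 gene ratios. Among gene ratios reported as at least 2-fold, 13 values changed sign, and sign changes of smaller ratios were not counted. All 8 shares of cells moved when thinned to 1000 UMIs.

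Without the mitotic limit there were 1333 sorted and 427 WKM members. Genes higher than in the others numbered 1029 sorted, 1053 WKM and 618 in both with at least 10 counts, 392, 232 and 179 with at least 200, and 1189, 1065 and 681 at 1.5-fold. Lower genes numbered 665, 816 and 178 with at least 10 counts, 154, 108 and 39 with at least 200, and 1158, 1116 and 465 at 1.5-fold. With others of matched depth they numbered 161, 144 and 42, and with lyz of at least 1% 584, 625 and 211. A cycling limit of 2 gave 214 lower genes in the sorted library and 62 in both, and lyz of at least 6% gave 67 in both. Another count minimum changes which genes are tested, and another fold is itself a different limit. For the other settings the cause of the changes was not tested.

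The mitosis list median was 1.68 sorted and 1.88 WKM with the mean of each cell's CPM, 3.18 and 4.30 against not cycling barcodes, and 0.47 in WKM with matched depth. The checkpoint, repair and cohesion median in WKM was 2.30 with the mean of each cell's CPM. Against not cycling barcodes, an alternative chosen after seeing the data, genes of the mitotic barcodes changed sign, since those barcodes were left out by construction: inka2 to 0.23 and 0.30, si:ch211-69g19.2 to 0.12 and 1.80, zgc:194627 to 0.90 and 0.49, ccnb1 to 0.40 and 1.46 and cdc20 to 0.28 and 1.52 in sorted and WKM, and in WKM parpbp to 0.49, aspm to 1.13 and kif11 to 2.44.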
